A study of Mus musculus with 6 samples.

Results

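The genes for the proteins of the mitochondrial ribosome were followed in mouse embryonic fibroblasts (MEFs) under erastin. A gene was a member when its Ensembl identifier was a row of the deposited count table and the GENCODE M21 annotation gave it as protein-coding with a symbol of Mrpl or Mrps followed by a digit. This gave 77 of the 43346 genes in the table. Of these, 50 encode proteins of the large ribosomal subunit, 26 encode proteins of the small subunit, and Mrps36 carries the name although its product is now placed in the 2-oxoglutarate dehydrogenase complex. Mrps18a and Mrps30 were counted with the large subunit, where their products sit in the mammalian particle. Mrpl33 is not analysed here.

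Mitochondria have a ribosome of their own, which translates the few mRNAs of the mitochondrial genome into membrane subunits of the respiratory chain and of ATP synthase. Its rRNAs are transcribed from mitochondrial DNA, whereas every one of its proteins is encoded in the nucleus, made in the cytosol and imported. Many of these proteins descend from bacterial ribosomal proteins, and others were added in the line that led to mammals.

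The cells were primary MEFs of the C57BL/6 strain at passage 9, a culture of embryonic fibroblasts with a limited life span. One group of 3 libraries came from cells given DMSO, the solvent, and the other group of 3 from cells harvested 24 h after addition of 3 µM erastin, a small molecule that blocks cystine import and is used to induce ferroptosis, a death driven by iron-dependent lipid peroxidation. Medium with fetal bovine serum and 2-mercaptoethanol was common to both groups. RNA sequencing of rRNA-depleted total RNA gave 13333911 to 20509970 counts per library. The labels do not say that the libraries of a group came from separate cultures or embryos, so p-values measure the spread between these libraries, which may be technical. Levels are counts scaled to library size with TMM factors (CPM).

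Under erastin the members did not shift together: 12 of the 76 tested were higher and 11 were lower, and 53 did not pass (edgeR's quasi-likelihood test, Benjamini-Hochberg adjusted p under 0.05 over all 14000 genes tested). The largest rises were those of Mrps22, Mrps31 and Mrpl47, all past 2-fold, and the largest falls were those of Mrpl14, Mrps12 and Mrpl18. The 23 calls are 30.3% of the members tested, beside 43.1% of all genes tested. By direction, 15.8% of the members were higher, beside 21.6% of all genes, and 14.5% were lower, beside 21.5%. The values of the 3 DMSO and the 3 erastin libraries did not overlap for 33 members, 17 higher and 16 lower, which is 43.4% beside 52.5% of all genes. The median log2 fold change of the members was -0.04 (quartiles -0.23 and 0.24), and that of all genes was -0.0014 (quartiles -0.43 and 0.40). In libraries from whole cultures, a change of RNA per cell and a change in which cells made up the culture cannot be told apart.

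The balance of directions moved with the scaling of the libraries, for the members as for all genes. With upper-quartile factors 10 members were higher and 16 lower, beside 19.0% and 24.1% of all genes. With total counts only 15 members were higher and 9 lower, beside 24.7% and 18.5% of all genes. Of the 23 calls, 16 passed in each of the 6 fits that left out a library. The share of calls kept in every such fit was not computed over all genes. In the single fits 22.4% to 28.9% of the members tested passed, beside 33.6% to 40.2% of all genes. Of the 53 members that did not pass, 31 had a 95% interval of the log2 fold change within 0.5 of 0.

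**Figure D1:**
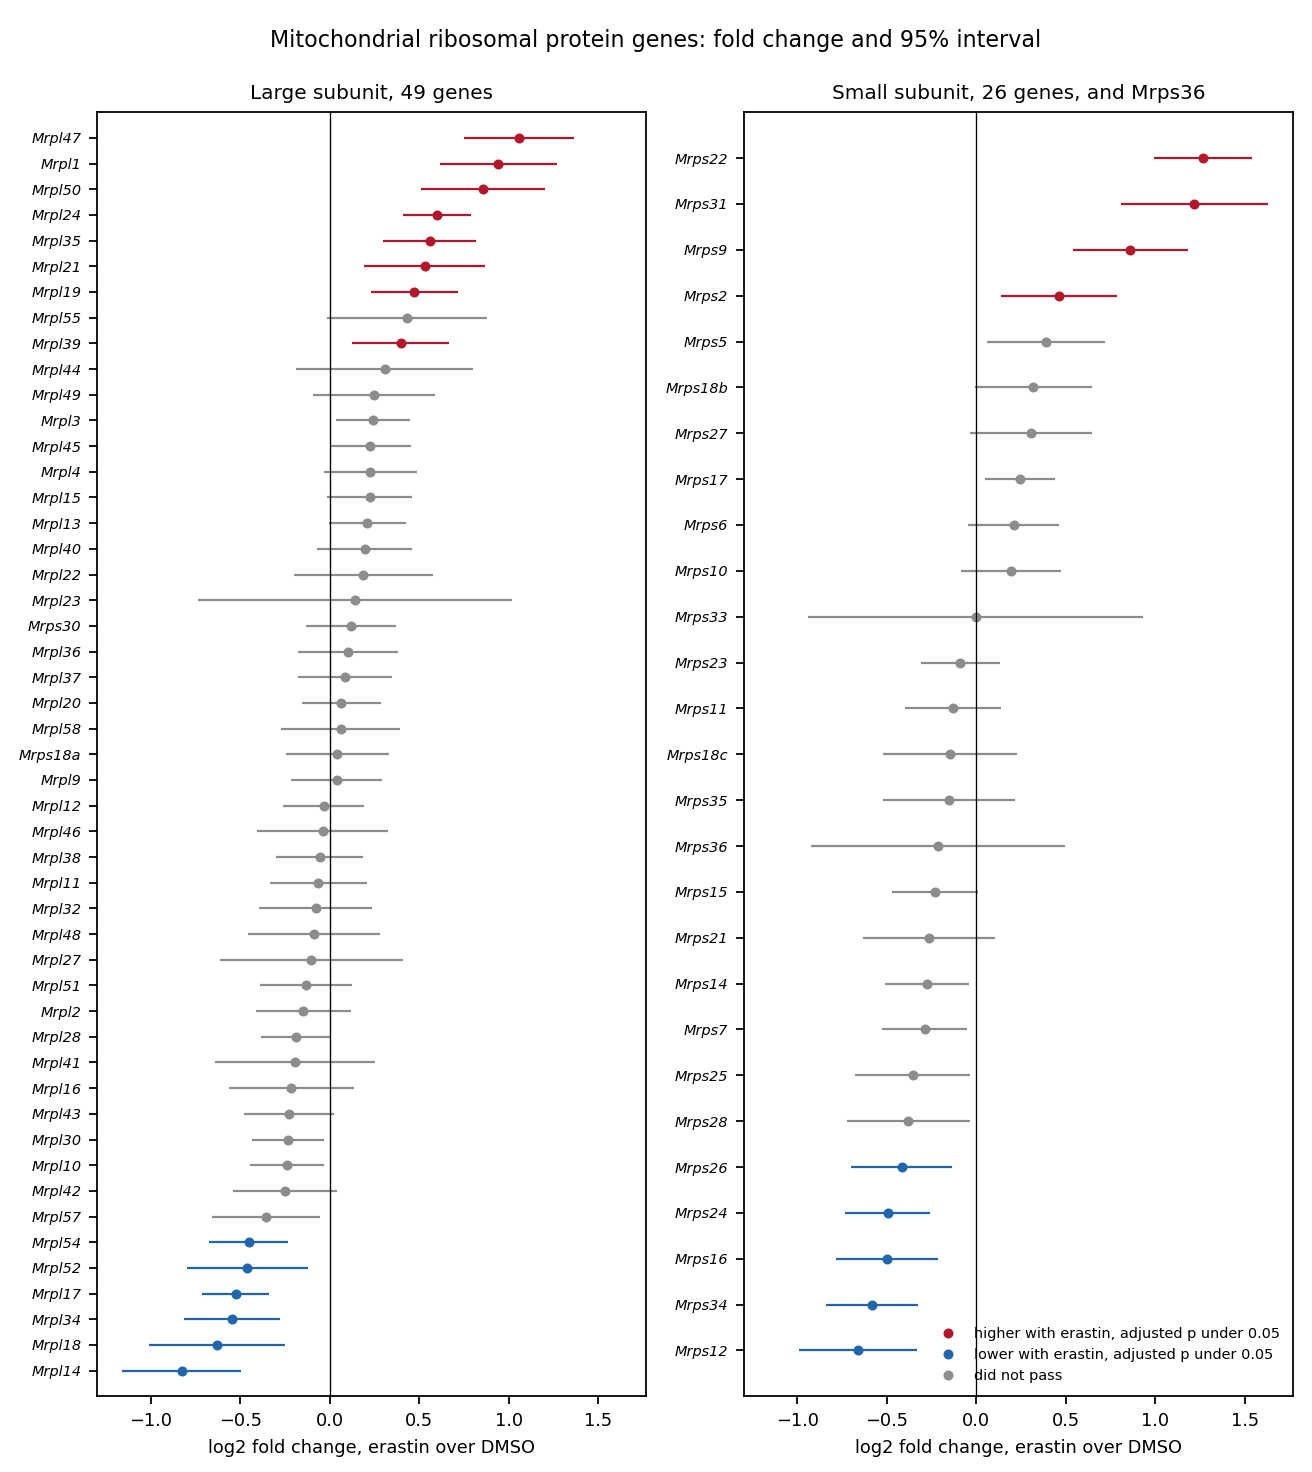
Log2 fold change, erastin over DMSO, of the 76 members tested, sorted by value within the large subunit (left) and the small subunit with Mrps36 (right). Points are fitted values, lines are 95% intervals and colours mark the calls. The 12 higher and 11 lower members stand at the ends of both panels, and the 53 members that did not pass lie between them, with the exception of Mrpl55, which stands above Mrpl39, a called member.

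With TMM factors, the summed level of the members differed by less than the spread between libraries. With total counts only and with upper-quartile factors the difference was beyond that spread, in opposite directions. It was 2037, 1944 and 1881 CPM in DMSO replicates 1, 2 and 3, and 1903, 1985 and 1987 CPM in erastin replicates 1, 2 and 3. The group means were 1954 ± 78.1 CPM with DMSO and 1958 ± 47.9 CPM with erastin (SD, n = 3 each), and the ranges overlapped. The members took 0.191% ± 0.0106 of all counts with DMSO and 0.200% ± 0.0030 with erastin (SD, n = 3 each). Per length of transcript, the summed large-subunit level was 2.46 ± 0.061 times the summed small-subunit level with DMSO and 2.41 ± 0.0664 times with erastin (SD, n = 3 each), again with overlapping ranges. Of the summed level, the 12 higher members went from 235 ± 22.4 to 384 ± 22.1 CPM and the 11 lower members from 396 ± 13.9 to 273 ± 14.7 CPM (SD, n = 3 each). The direction of these last sums is fixed by how the genes were grouped and they are given as a description.

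**Figure D2:**
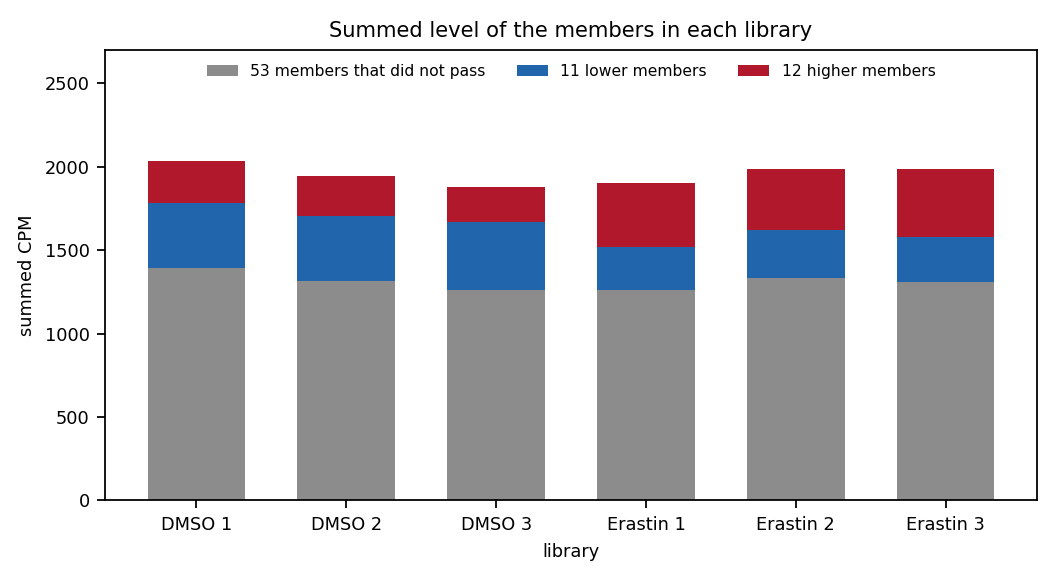
Summed CPM of the members in each of the 6 libraries, stacked by the call of each gene; bars start at 0. The totals run from 1881 to 2037 CPM and overlap between the groups, while the parts taken by the 12 higher and the 11 lower members differ by construction.

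Mrps22 (ENSMUSG00000032459.9), a small-subunit protein without a bacterial counterpart, had the largest rise. Its gene lies on chromosome 9 at 98588730-98601660, minus strand (GENCODE M21, GRCm38, the assembly called mm10). Its level was 11.9, 10.6 and 12.7 CPM in the DMSO libraries and 28.5, 26.5 and 29.5 CPM in the erastin libraries. Each erastin library was above every DMSO library by a wide margin. The log2 fold change was 1.27 (edgeR adjusted p = 4.54e-06, SE 0.14). Mrps31 (ENSMUSG00000031533.3, chromosome 8, 22411361-22429665, plus strand), a small-subunit protein likewise specific to mitochondria, stood at 14.7, 9.70 and 9.18 CPM with DMSO and at 26.3, 19.5 and 32.1 CPM with erastin. The groups did not overlap, but the erastin libraries spread widely, with replicate 2 lowest. Its log2 fold change was 1.22 (edgeR adjusted p = 0.000278, SE 0.21).

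Mrps9 (ENSMUSG00000060679.10, chromosome 1, 42851233-42905683), the counterpart of bacterial protein uS9 in the head of the small subunit, was at 14.1, 17 and 14.6 CPM with DMSO and 28.6, 21.6 and 32.6 CPM with erastin. The lowest erastin library, replicate 2, was still above the highest DMSO library. The log2 fold change was 0.86 (edgeR adjusted p = 0.000629, SE 0.16). Mrps2, the counterpart of bacterial uS2, was the remaining small-subunit member called higher (log2 fold change 0.46, edgeR adjusted p = 0.0362), and its groups overlapped, since DMSO replicate 1 at 32.7 CPM was above erastin replicate 3 at 31.5 CPM.

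In the large subunit 8 of 49 members tested (16.3%) were higher, beside 21.6% of all genes. Mrpl47 (ENSMUSG00000037531.8, chromosome 3, 32725397-32737605, minus strand), the counterpart of bacterial uL29 near the exit of the peptide tunnel, was at 13.4, 13.1 and 10.2 CPM with DMSO and 27.9, 22.7 and 25.9 CPM with erastin. No library of a group reached the range of the other. The log2 fold change was 1.06 (edgeR adjusted p = 7.37e-05, SE 0.16). In the annotation 24.2% of its exon bases are shared with exons of Actl6a or Ndufb5 on the opposite strand, and whether counting used the strand is not given in the sources used here. Mrpl1 (ENSMUSG00000029486.9, chromosome 5, 96209493-96266727), the protein of the mobile L1 stalk next to the exit site for tRNA, was at 10.5, 11.6 and 8.48 CPM with DMSO and 20.8, 18.7 and 19.5 CPM with erastin. The erastin libraries lay close together and well above the DMSO libraries. The log2 fold change was 0.94 (edgeR adjusted p = 0.00035, SE 0.17).

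Mrpl50, a protein of the large subunit specific to mitochondria, was at 25.3, 21.9 and 13.5 CPM with DMSO and 39.3, 33.9 and 37.1 CPM with erastin (log2 fold change 0.86, edgeR adjusted p = 0.00116, SE 0.18). DMSO replicate 3 was far below the other DMSO libraries. Mrpl24, the counterpart of bacterial uL24, was at 45.3, 47.1 and 42.3 CPM with DMSO and 63.1, 66.9 and 74.5 CPM with erastin (log2 fold change 0.60, edgeR adjusted p = 0.000149, SE 0.097). Its groups were apart, and 26.3% of its exon bases are shared with Rrnad1 on the opposite strand. Mrpl35, the counterpart of bacterial bL35, was at 16.8, 18.0 and 19.1 CPM with DMSO and 26.8, 24.4 and 28.0 CPM with erastin (log2 fold change 0.56, edgeR adjusted p = 0.00323, SE 0.13). The remaining calls in this direction were Mrpl21 (0.53), Mrpl19 (0.47, with 36.0% of its exon bases shared with Gcfc2) and Mrpl39 (0.40) on the log2 scale.

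**Figure D3:**
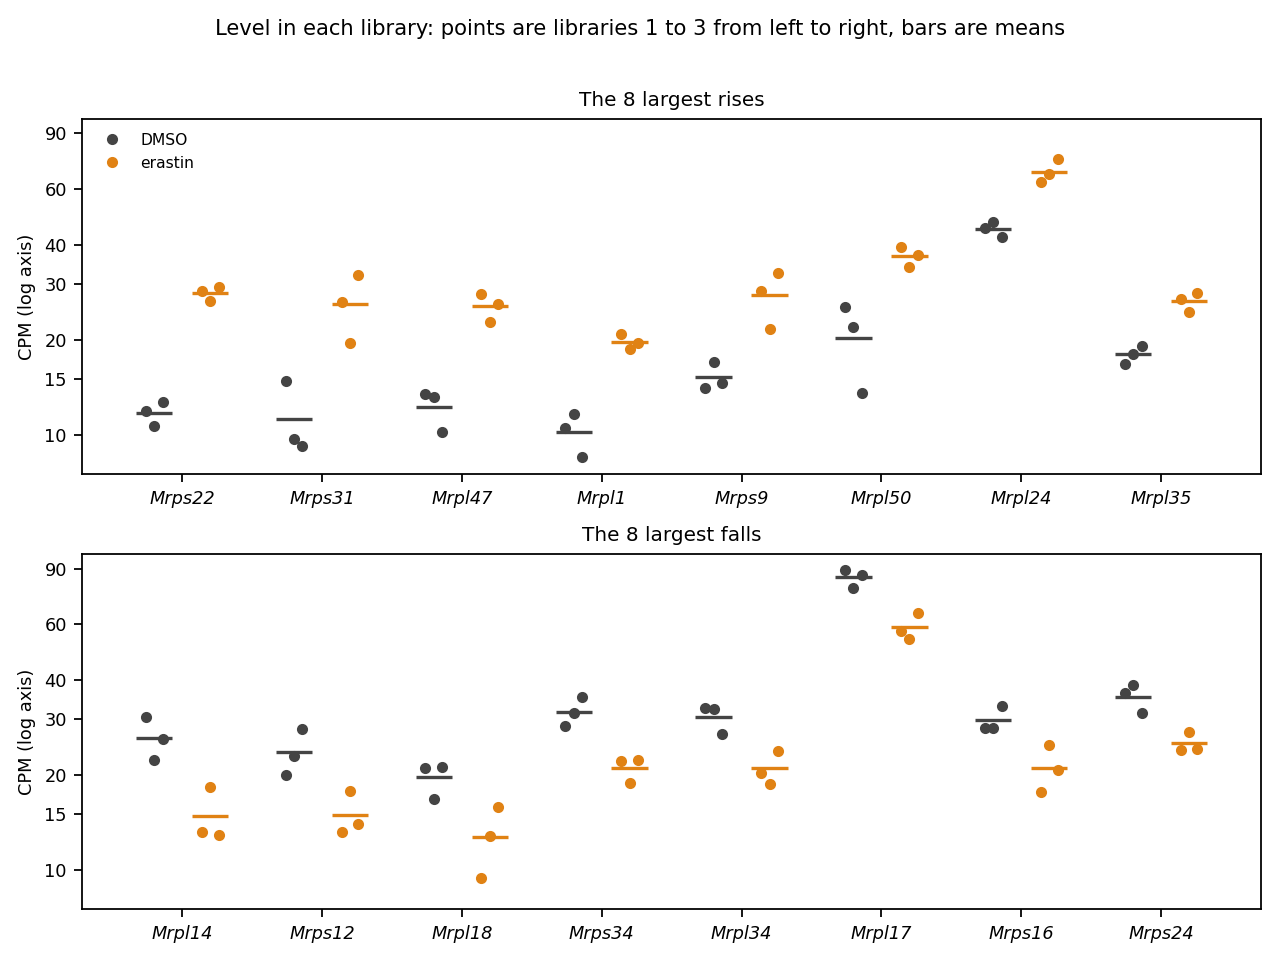
Level in CPM, on a log axis, of the 8 members with the largest rise (top) and the 8 with the largest fall (bottom) among members called with groups apart. Each point is a library, replicates 1 to 3 from left to right, and each bar is the mean of a group. In every one of these 16 genes the 3 erastin libraries lie on one side of the 3 DMSO libraries.

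Among the lower members, Mrpl14 (ENSMUSG00000023939.7, chromosome 17, 45686322-45698495, plus strand), the counterpart of bacterial uL14 at the face where the subunits meet, changed most. It was at 30.4, 22.3 and 26 CPM with DMSO and 13.2, 18.3 and 12.9 CPM with erastin. The highest erastin library stayed under the lowest DMSO library. It fell by 0.83 on the log2 scale (edgeR adjusted p = 0.00116, SE 0.17). Mrps12 (ENSMUSG00000045948.8, chromosome 7, 28739641-28741820, minus strand), the counterpart of bacterial uS12 in the decoding centre, was at 19.9, 23.0 and 28.0 CPM with DMSO and 13.2, 17.7 and 13.9 CPM with erastin. The groups were apart, with a narrow gap between DMSO replicate 1 and erastin replicate 2. It fell by 0.66 (edgeR adjusted p = 0.00509, SE 0.17).

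Mrpl18, the counterpart of bacterial uL18, was at 21.1, 16.7 and 21.1 CPM with DMSO and 9.40, 12.8 and 15.9 CPM with erastin. It fell by 0.63 on the log2 scale (edgeR adjusted p = 0.0162, SE 0.19), and the call was lost without DMSO replicate 1 (adjusted p = 0.0582) and without erastin replicate 1 (adjusted p = 0.0883). Mrpl34, the counterpart of bacterial bL34, was at 32.6, 32.2 and 27.0 CPM with DMSO and 20.3, 18.7 and 23.9 CPM with erastin (log2 fold change -0.55, edgeR adjusted p = 0.0046, SE 0.14). Mrpl17, the counterpart of bacterial bL17, was at 89.4, 78.0 and 85.9 CPM with DMSO and 56.9, 53.9 and 64.9 CPM with erastin, with the lowest SE of all members tested (log2 fold change -0.53, edgeR adjusted p = 0.000449, SE 0.096). In each of these 3 genes the groups were apart.

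In the small subunit, Mrps34 (specific to mitochondria) was at 28.5, 31.4 and 35.2 CPM with DMSO and 22.2, 18.9 and 22.2 CPM with erastin (log2 fold change -0.59, edgeR adjusted p = 0.00213, SE 0.13). As much as 77.8% of its exon bases are shared with exons of Mapk8ip3 or Nme3, so reads of these genes may be mixed in its count. Mrps24, the counterpart of bacterial uS3 at the mRNA entry, was at 36.3, 38.4 and 31.4 CPM with DMSO and 24.0, 27.3 and 24.1 CPM with erastin (log2 fold change -0.50, edgeR adjusted p = 0.00418, SE 0.12). Mrps16, the counterpart of bacterial bS16, was at 28.1, 28.2 and 33.1 CPM with DMSO and 17.6, 24.9 and 20.7 CPM with erastin (log2 fold change -0.50, edgeR adjusted p = 0.0118, SE 0.15). All 3 genes had groups apart, and the call of Mrps16 was lost without erastin replicate 1 (adjusted p = 0.0743). The remaining lower members were Mrpl54 (-0.45), Mrpl52 (-0.46) and Mrps26 (-0.42) on the log2 scale.

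Mrpl52 and Mrps17 stood next to the threshold. Mrpl52, specific to mitochondria, was just inside (edgeR adjusted p = 0.0434). Its DMSO libraries were at 39.3, 42.5 and 52.8 CPM and its erastin libraries at 26, 43.9 and 28.1 CPM, so that erastin replicate 2 lay within the DMSO range. Without DMSO replicate 2 or 3 or erastin replicate 1 or 3 its adjusted p was 0.0720, 0.154, 0.212 and 0.142. Mrps17, the counterpart of bacterial uS17, was just outside (edgeR adjusted p = 0.0628), with 36.0, 35.9 and 36.4 CPM with DMSO and 40.9, 45.6 and 41.8 CPM with erastin, groups that did not overlap.

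Mrpl21, Mrpl39, Mrps2 and Mrps26, named because they complete the list of calls, also lost it when libraries were left out. For Mrpl21 the adjusted p was 0.0619, 0.0733, 0.0901 and 0.0664 without DMSO replicate 2, DMSO replicate 3, erastin replicate 1 and erastin replicate 3. For Mrpl39 it was 0.0891 and 0.111 without DMSO replicates 1 and 3, and 0.0705 and 0.115 without erastin replicates 1 and 2. For Mrps2 it was 0.128 without DMSO replicate 2, 0.128 without DMSO replicate 3, and 0.0880 and 0.122 without erastin replicates 1 and 2. For Mrps26 it was 0.159 without DMSO replicate 2, and 0.0658 and 0.104 without erastin replicates 2 and 3. These 4 genes, with Mrpl18, Mrps16 and Mrpl52, are the calls that did not hold in every such fit.

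Members were called in each structural class. Of the 29 tested large-subunit proteins with a bacterial counterpart 6 (20.7%) were higher and 4 (13.8%) lower. Of the 20 large-subunit proteins specific to mitochondria 2 were higher and 2 lower (10% each). Of the 17 small-subunit proteins with a bacterial counterpart 2 (11.8%) were higher and 3 (17.6%) lower. Mrps18b and Mrps18c were placed in this class, whereas their paralog Mrps18a was placed with the large-subunit proteins specific to mitochondria. None of these paralogs was called, so another placing would change the class sizes and not the counts of calls. Of the 9 small-subunit proteins specific to mitochondria 2 were higher and 2 lower (22.2% each). Over all genes tested 21.6% were higher and 21.5% lower. The median log2 fold change was 0.04 over the large subunit and -0.14 over the small subunit, beside -0.0014 over all genes. A difference between subunits or classes was not tested.

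The 3 paralogs Mrps18a, Mrps18b and Mrps18c, of which the first is built into the large subunit and the others into the small one, did not pass. Their log2 fold changes were 0.04 (95% interval -0.24 to 0.33), 0.32 (-0.0098 to 0.65) and -0.15 (-0.52 to 0.22). Mrps18b passed without DMSO replicate 1 (0.51, edgeR adjusted p = 0.0264) and with offsets for GC content and length computed from the longest (0.44, adjusted p = 0.0353) and the main coding transcript (0.45, adjusted p = 0.0335). Mrpl12, the stalk protein that also binds mitochondrial RNA polymerase, was at 60.1, 50.6 and 42.5 CPM with DMSO and 50.5, 48.2 and 50.7 CPM with erastin, all 3 inside the DMSO range (log2 fold change -0.04, 95% interval -0.26 to 0.19). Mrpl58, a peptidyl-tRNA hydrolase built into the large subunit, had a log2 fold change of 0.06 (-0.27 to 0.39). Mrps36 was measured with 34 to 64 counts per library, and its interval ran from -0.92 to 0.49, too wide at this depth to tell a fall from a rise.

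Mrpl53 had 0 counts in all 6 libraries and was not tested. A count of 0 allows a level of up to 3 counts, or 0.14 to 0.234 CPM depending on the library, which covers counting error only. In the annotation 88.0% of its exon bases are shared with Ccdc142os or Gm42688. The part of this overlap in the count of 0 was not tested.

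The members differed in level more than they differed between treatments. Per kilobase of the main coding transcript, the mean DMSO level ran from 2.51 CPM per kb for Mrps5 to 107 CPM per kb for Mrpl52, a 42.7-fold range with a median of 15.2. Next after Mrpl52 (107 ± 16.8) came Mrpl54 (69.4 ± 5.17), Mrpl20 (64.3 ± 10.3) and Mrpl30 (55.9 ± 5.44 CPM per kb, SD, n = 3), all of the large subunit. The DMSO ranges of Mrpl52 and Mrpl54 were apart, whereas Mrpl54 and Mrpl20, and Mrpl20 and Mrpl30, overlapped, as did 74 of the 75 neighbouring pairs in the whole order. Of these 4 genes, Mrpl20 (log2 fold change 0.06) and Mrpl30 (-0.23, edgeR adjusted p = 0.0807) did not pass. Of the 10 members highest per kb with DMSO, 7 were also among the 10 highest with erastin. The order depends on the transcript length used, which the SDs and ranges do not cover. The main coding and the longest transcript have 418 and 856 bases for Mrpl52, and 969 and 1757 for Mrpl30. For Mrpl54 both have 604 bases.

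Transcript composition moved with the direction of change. The 12 higher members had a median GC content of 46.4% and a median length of 2097 bases in their main coding transcript, the 11 lower members 56.5% and 918 bases, and the 53 others 51.4% and 1288 bases. Among members under 45% GC, 4 of 12 were higher and 1 lower; among those at 52% or above, 1 of 30 was higher and 7 lower. The same tilt ran through all protein-coding genes tested, of which 33.4% were higher and 14.0% lower under 45% GC, and 16.1% were higher and 28.3% lower at 52% or above. Across genes, which share the 6 libraries and are not replicates, Pearson's r of log2 fold change with GC content was -0.37 over 76 members and -0.15 over 12534 protein-coding genes.

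Offsets per library that take out smooth trends with GC content and length were computed from the longest transcript of each gene and, chosen after the data were seen, from the main coding transcript. The latter brought r to -0.10 over the members and to 0.0016 over all protein-coding genes. The longest-transcript offset left 15 members higher and 11 lower, beside 21.2% and 20.1% of all genes. The main-transcript offset left 15 higher and 10 lower, beside 21.2% and 19.9%. All 12 higher members passed with both offsets, and of the 11 lower members 8 passed with the longest-transcript offset and 7 with the main-transcript offset. Mrpl34 (log2 fold change -0.31 with both, adjusted p = 0.0909 and 0.0877), Mrpl54 (-0.18 and -0.16, adjusted p = 0.271 and 0.302) and Mrpl52 (-0.37 and -0.14, adjusted p = 0.142 and 0.546) passed with neither. Mrps34 passed with the longest-transcript offset (-0.35, adjusted p = 0.0469) and did not pass with the main-transcript offset (-0.31, adjusted p = 0.0928). Mrpl17 is an exception to the tilt, with a transcript of 7300 bases at 43.0% GC, and fell by 0.67 on the log2 scale with either offset. The part of composition in the calls was not tested beyond these offsets.

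**Figure D4:**
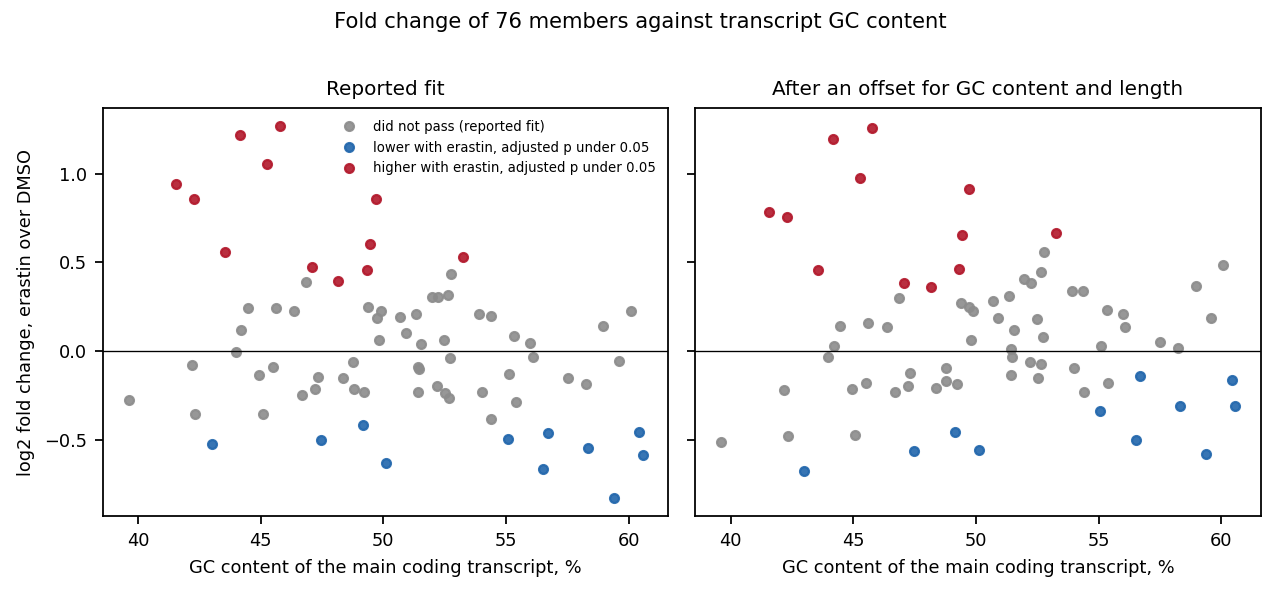
Log2 fold change, erastin over DMSO, of the 76 members against the GC content in percent of the main coding transcript, in the reported fit (left) and after the main-transcript offset for GC content and length (right). Colours mark the calls of the reported fit in both panels. The downward tilt on the left (r = -0.37) is flatter on the right (r = -0.10), and the higher members stay above 0.

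Promoter letters were compared because many Mrp genes are known to be driven by housekeeping factors, among them the ETS factor GABP, NRF1 and YY1. RefSeq windows (GRCm38.p6) from 250 bases before to 50 after the start were found for 68 of the 77 members, and the window nearest the annotated start was used. Its RefSeq start could still be far from the annotated start, as for Mrps24 (7979 bases), Mrpl35 (3185) and Mrpl36 (2496), all counted below with a YY1 core. Either strand of the ETS core CCGGAAG was present in 33.8% of the members' windows, beside 8.86% of all 32851 windows of the same length. For the NRF1 core GCATGCGC the shares were 10.3% and 2.71%, and for the YY1 core AAGATGGCG 11.8% and 1.40%; the ETS and YY1 cores can overlap in the letters AAG. The CRE core TGACGTCA was in 2.94% and 1.79%, and the ATF4 core TGATGCAA in 0 of 68 and 0.895%. The members' windows had a median GC content of 58.5%, beside 52.7% for all windows. The ETS core was found in 2 of 11 higher, 6 of 9 lower and 14 of 47 members that did not pass, and in that of the untested Mrpl53, and a difference between these was not tested. A match describes letters and is no evidence of binding.

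To show that the core occurs in members that moved in either direction, the 100 bases before the start are given for the largest rises, Mrps22 and Mrps31, and for the falls of Mrps12 and Mrpl34, chosen because these stretches lie outside the annotated genes. Capitals mark a CCGGAAG core, which Mrps22 and Mrpl34 hold in this stretch and Mrps31 and Mrps12 do not. The window of Mrps12 holds the core outside this stretch, so Mrps12 is among the lower members counted with it above. The 4 genes do not reflect the shares, which were 2 of 11 higher and 6 of 9 lower members. Positions are chr9:98601680-98601779 on the minus strand, chr8:22411240-22411339 on the plus strand, chr7:28741822-28741921 on the minus strand and chr8:71464826-71464925 on the plus strand, in that order.
Mrps22: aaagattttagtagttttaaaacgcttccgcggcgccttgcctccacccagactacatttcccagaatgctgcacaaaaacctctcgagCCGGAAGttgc
Mrps31: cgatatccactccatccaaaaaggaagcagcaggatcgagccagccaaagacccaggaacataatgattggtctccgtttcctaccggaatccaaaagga
Mrps12: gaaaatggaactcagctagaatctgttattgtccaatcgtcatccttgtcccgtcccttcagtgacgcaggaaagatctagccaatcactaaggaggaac
Mrpl34: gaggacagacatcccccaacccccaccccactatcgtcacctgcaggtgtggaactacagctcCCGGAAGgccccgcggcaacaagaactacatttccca

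Of the 5 mitoribosome proteins without an Mrp symbol, Ptcd3, a small-subunit RNA-binding protein, was higher, at 32.7, 32.5 and 29.2 CPM with DMSO and 41.8, 37.2 and 43.4 CPM with erastin (log2 fold change 0.37, edgeR adjusted p = 0.013, SE 0.11). The groups were apart, and without erastin replicate 1 its adjusted p was 0.0555. Chchd1 (0.31), Aurkaip1 (0.19), Gadd45gip1 (-0.14) and Dap3 (-0.23) did not pass. With the longest-transcript offset Chchd1 and Aurkaip1 passed (adjusted p = 0.031 and 0.00241), and likewise with the main-transcript offset (0.0314 and 0.00264), as did Chchd1 without DMSO replicate 1 (0.028) and Dap3 without DMSO replicate 3 (0.0274). The rRNAs of the particle were read after a depletion of rRNA, whose part in their levels was not tested. mt-Rnr2, the large rRNA, was higher (log2 fold change 0.86, edgeR adjusted p = 6.46e-05, SE 0.12), and mt-Rnr1, the small rRNA, did not pass (0.54, adjusted p = 0.081); without erastin replicate 1 it passed (0.78, adjusted p = 0.0169).

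Of 27 assembly factors and rRNA-modifying enzymes tested, 6 (22.2%) were higher and 2 (7.41%) lower, beside 21.6% and 21.5% of all genes. Their median log2 fold change was 0.24, beside -0.0014 over all genes. Afg3l2, a protease of the inner membrane that matures Mrpl32, was at 52.5, 45.7 and 48.9 CPM with DMSO and 93.0, 92.6 and 91.6 CPM with erastin, with tight and separate groups (log2 fold change 0.92, edgeR adjusted p = 1e-06, SE 0.087). Mterf3, which acts in large-subunit assembly, was higher (0.69, adjusted p = 0.000794) and Mpv17l2, an inner-membrane protein that binds the large subunit, was lower (-0.65, adjusted p = 0.000705). Of 18 translation factors and mRNA-handling proteins tested, 4 (22.2%) were higher and 1 (5.56%) lower. The 3 with the smallest p were Lrpprc, which stabilises mitochondrial mRNAs (0.36, adjusted p = 0.00278), Mtif3, an initiation factor (0.80, adjusted p = 0.00354), and Oxa1l, the insertase that receives the new chains (-0.43, adjusted p = 0.0124). Without erastin replicate 1 the adjusted p of Oxa1l was 0.077.

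For transcription and upkeep of the mitochondrial genome, 3 of 10 genes (30%) were higher and 1 (10%) lower, beside 21.6% and 21.5% of all genes. Tfam, which packages the genome and starts its transcription, was at 23.2, 19.3 and 15.0 CPM with DMSO and 38.0, 34.4 and 46.7 CPM with erastin (log2 fold change 1.05, edgeR adjusted p = 9.03e-05, SE 0.16). Each erastin library was above every DMSO library. Tefm, the elongation factor (1.07, adjusted p = 0.00219), and Ssbp1, the single-strand binding protein (0.83, adjusted p = 0.0205), were higher as well. Ssbp1 did not pass with the longest-transcript or the main-transcript offset (adjusted p = 0.0504 and 0.062), nor without DMSO replicate 1 or 3 or erastin replicate 2 or 3 (adjusted p = 0.0731, 0.0623, 0.062 and 0.0554). Among mRNAs of the mitochondrial genome 5 of 12 tested (41.7%) were higher and 0 lower by edgeR, with 6 at an unadjusted p under 0.05. With the longest-transcript offset 2 were higher and 1 lower, and with the main-transcript offset 1 was higher and 1 lower. mt-Nd4 (0.49), mt-Nd2 (0.43) and mt-Nd5 (0.37) had the smallest p. Of these, mt-Nd5 did not pass with the longest-transcript offset (0.18, edgeR adjusted p = 0.174) or the main-transcript offset (0.13, adjusted p = 0.310). Nor did mt-Nd2 pass with the main-transcript offset (0.24, edgeR adjusted p = 0.0699). Without erastin replicate 1 the adjusted p of mt-Nd2 was 0.0522 and that of mt-Nd5 was 0.0747. Of 9 nuclear regulators tested 4 (44.4%) were higher and 1 (11.1%) lower. Myc rose most (1.49, edgeR adjusted p = 4.24e-08), and Gabpa, the DNA-binding subunit of GABP (0.51, adjusted p = 0.000397), and Yy1 (0.36, adjusted p = 0.00732) were higher. Without erastin replicate 1 the adjusted p of Yy1 was 0.0528.

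Beside these lists stood the cytosolic ribosomal proteins, with 0 higher and 38 lower of 78 tested by edgeR (47 at an unadjusted p under 0.05) and a median log2 fold change of -0.23, and the nuclear-encoded respiratory chain subunits, with 3 higher and 33 lower of 76 and a median of -0.22. Both lists have short transcripts, with medians of 869 and 863 bases. With the longest-transcript offset 20 of the 78 cytosolic ribosomal protein genes were lower. Of the 76 respiratory chain subunit genes 4 were higher and 21 lower, beside 21.2% and 20.1% of all genes. With the main-transcript offset the counts were 15 lower of 78, and 4 higher and 16 lower of 76, beside 21.2% higher and 19.9% lower of all genes. The difference between the Mrp genes and either list was not tested.

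**Figure D5:**
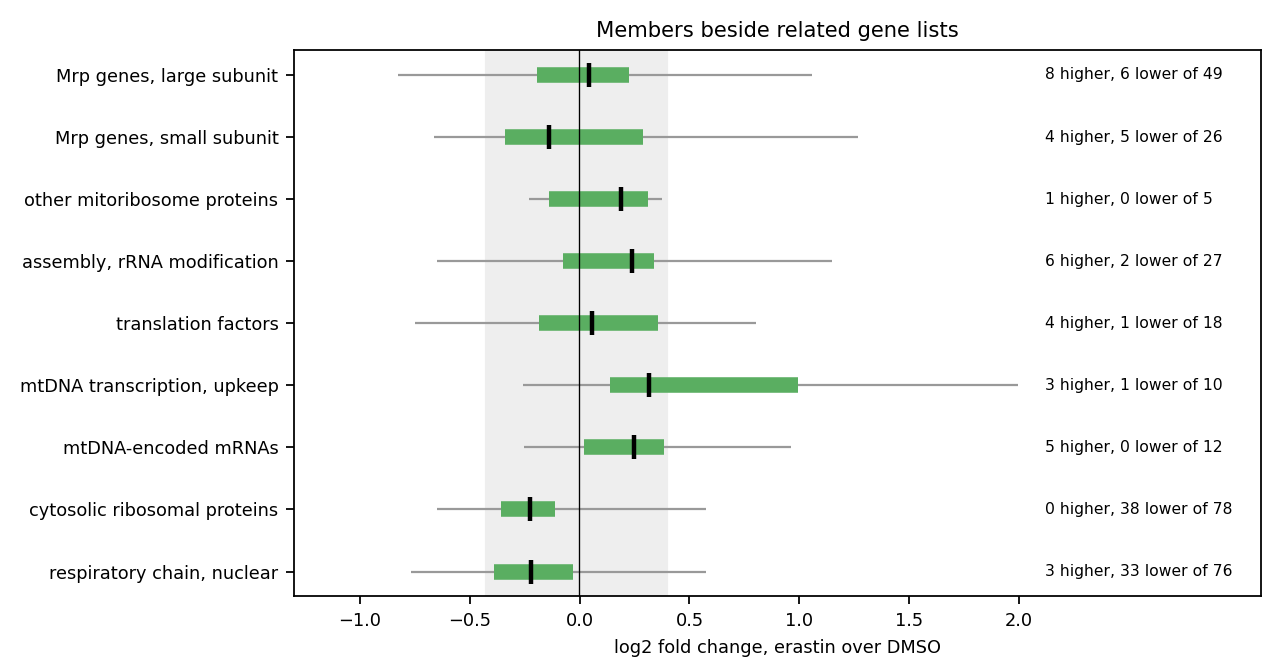
Log2 fold change, erastin over DMSO, by gene list: black ticks are medians, green bars run between the quartiles and grey lines from the lowest to the highest value. The shaded band holds the quartiles of all genes tested (-0.43 to 0.40). The 2 Mrp rows lie around 0, with medians of 0.04 and -0.14, while the cytosolic ribosomal protein and respiratory chain rows lie to the left, with medians of -0.23 and -0.22.

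The label of the cells was checked on markers. All 10 fibroblast markers were expressed, with a summed level of 35433 to 38496 CPM in the DMSO and 25455 to 26901 CPM in the erastin libraries, and 8 of them were lower with erastin. Epithelial markers summed to 2.00 to 3.17 CPM in every library. Endothelial markers summed to 4.66 to 7.10 CPM with DMSO and 13.2 to 16.4 CPM with erastin, from Kdr and Tek, while Pecam1 and Cdh5 were near 0. Blood markers summed to 9.23 to 16.9 CPM over all 6 libraries. Neural markers, mostly Tubb3, summed to 72.3 to 101 CPM with DMSO and 54.7 to 61.2 CPM with erastin, and Tubb3 was lower (-0.74 on the log2 scale). Muscle markers summed to 86.6 to 107 CPM with DMSO and 82.0 to 90.5 CPM with erastin, with Acta1 lower (-1.58) and Des higher (0.72). Sox2, Gfap, Myod1 and Myog were near 0. The part of these shifts in the values of the Mrp genes was not tested. On a principal component plane of all genes tested the first component (60.4% of the variance) parted the groups and the second (14.5%) set DMSO replicate 3 apart, and without DMSO replicate 3 the members had 9 higher and 13 lower calls, beside 20.4% and 19.7% of all genes in that fit.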

How the data were processed

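The deposited table holds whole-number read counts per gene for 6 libraries, not normalized by the authors; per the submitters' processing notes HTSeq 0.9.1 and SAMtools were used with mm10, while the aligner, the annotation, the use of strand and the treatment of reads matching several genes are not given in the sources used here. Identifiers were matched without their version to GENCODE M21, and 98.0% had a symbol; its gene models may differ from those behind the counts. Columns were assigned through the sample numbers in the labels, with 0 columns left unused.

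Counts were fitted with edgeR 4.0.16 in R 4.3.3: filterByExpr (minimum count 10 in 3 libraries, total 15), TMM factors, quasi-likelihood test of treatment over all 6 libraries, Benjamini-Hochberg over 14000 genes, threshold 0.05. The biological coefficient of variation was 15.1%, and members had a median SE of 0.143 on the log2 scale and mean counts of 43.7 to 1178. Standard errors come from the fitted weights and posterior dispersion. The 95% intervals are nominal, the value plus or minus 1.96 SE, a normal approximation narrower than the test implies. That of Mrpl45 excludes 0 (lower end 0.00059), although its unadjusted p by edgeR's quasi-likelihood test was 0.0689. The script was tested on simulated counts. No set test was made. Libraries were PCR-amplified without molecular identifiers, so floors cover counting error only.

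Members and lists were chosen with earlier results of these data known. Genes named are the 8 largest rises and 8 largest falls among calls with groups apart, the 4 highest per kb, those failing the filter, the calls next to the threshold, Mrps18a, Mrps18b, Mrps18c, Mrpl12, Mrpl58 and Mrps36, the 5 mitoribosome proteins without an Mrp symbol, and of each further list the 3 with the smallest p; other names were chosen after their values were seen. Within-group library pairs differed by a chi-square per degree of freedom of 11.0 to 19.2, so none was a duplicate. Equal replicate numbers did not mark libraries that deviate together (correlations 0.0401, 0.0038 and -0.0055). Alternatives were RLE and upper-quartile factors, total counts, other filters, DESeq2 1.42.0, a replicate block, GC and length offsets (mgcv 1.9.3), a threshold of 0.01 and leaving out each library.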

Additional observations from a re-analysis of the deposited data

How the results depend on the processing

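The counts of 12 higher and 11 lower members were the same with RLE factors, DESeq2, no filter and a filter of 1 CPM. Of all genes 42.9%, 43.6%, 22.8% and 46.1% passed in these fits. The members' 30.3% was thus above the all-gene share with no filter, where 26801 genes were tested, and below it in the other fits. At an adjusted p under 0.01, 9 members were higher and 7 lower, 3 of the lower ones of the small subunit, beside 15.4% of all genes in each direction. The median log2 fold change of the members moved by more than the spread between libraries with the longest-transcript GC and length offset (0.030) and total counts only (0.028). The same held with the offset on the main coding transcript, chosen after seeing the data (0.055). The summed level of members, as a log2 ratio of erastin to DMSO, was 0.066 with total counts only and -0.051 with upper-quartile factors, beside 0.00294 in the reported fit. Both lay beyond the spread of 0.048 between libraries, in opposite directions. Leaving out each library gave 17 to 22 members passing, 9 to 12 higher and 8 to 13 lower, while 33.6% to 40.2% of all genes passed. The lowest values, 17 members and 33.6% of all genes, came without erastin replicate 1. In the large subunit 6 to 7 were higher and 4 to 6 lower, and in the small subunit 3 to 5 higher and 4 to 7 lower. Medians were -0.074 to 0.023 and summed-level ratios -0.026 to 0.033. Of the named genes tested, 28 to 35 passed, beside 35 in the reported fit.

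With the replicate block, which has no basis in the labels beyond shared numbers, 24 members passed, 12 higher and 12 lower, beside 42.0% of all genes. Of the named genes 36 passed. The block with the GC and length offset gave a median of 0.036, and with the offset on the main coding transcript 0.061.

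Under at least 1 alternative 21 members changed sign, 8 of them with the GC and length offset and 7 with the offset on the main coding transcript; none passed in the reported fit or under the alternative that changed its sign. Those among the named genes were Mrpl12 with the GC and length offset (0.15, and 0.16 with the block), with the offset on the main coding transcript (0.14, and 0.15 with the block), with total counts only (0.028) and without DMSO replicate 1 (0.095); Mrps18a with upper-quartile factors (-0.011), without DMSO replicate 3 (-0.012) and without erastin replicate 2 (-0.15); Mrpl58 without DMSO replicate 3 (-0.084) and erastin replicate 2 (-0.054); Mrpl20 without DMSO replicate 3 (-0.015); Mrps18c without erastin replicate 1 (0.0092). Over the fits that left out a library the values ran from -0.15 to 0.09 for Mrpl12, -0.15 to 0.15 for Mrps18a, -0.084 to 0.19 for Mrpl58, -0.015 to 0.20 for Mrpl20 and -0.27 to 0.0092 for Mrps18c. The causes were not tested. Precision was lowest for the 3 members with mean counts under 100, with SE of up to 0.477 on the log2 scale.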

Other observations

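Many Mrp genes start close to a neighbour on the opposite strand. For 23 members tested the start of another protein-coding gene lay head to head, within 1000 bases or overlapping by at most 300 bases. Mrpl46 and Mrps11, 2 members whose starts overlap by more than 300 bases, were not counted as a pair. Of these, 5 members and 7 neighbours passed, beside 43.1% of all genes tested, and in 1 pair, Mrpl21 and Ighmbp2 (0.81 on the log2 scale, edgeR adjusted p = 0.00266), both were higher. Mrpl51 lies 100 bases from Ncapd2, a condensin subunit that was lower (-1.68, edgeR adjusted p = 1.67e-07), and did not itself pass (-0.13). Mrps18c lies 29 bases from Helq, a DNA helicase that was higher (1.33, edgeR adjusted p = 7.97e-05), and did not pass (-0.15). Mrpl27 and its neighbour Eme1 (-3.00, edgeR adjusted p = 0.00222), and Mrpl57 and its neighbour Ska3 (-1.07, edgeR adjusted p = 0.0408), showed a lower neighbour beside a member that did not pass. The other neighbours that passed were higher: Ppp1r10 (0.53, edgeR adjusted p = 0.00196), 45 bases from Mrps18b (0.32), and Ptcd2 (0.42, edgeR adjusted p = 0.0285), 81 bases from Mrps27 (0.30), both beside a member that did not pass. These pairs were chosen after their values were seen.

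Of the processed pseudogenes named after members, Mrpl23-ps1 had 8 to 34 counts per library, Mrpl48-ps 6 to 23 and Mrps36-ps1 0 to 5. For Mrpl23 this was not small beside the parent gene, which had 26 to 82 counts. In DMSO replicate 1 the pseudogene had 27 counts and Mrpl23 26, and in erastin replicate 1 they had 34 and 38. Near-identical copies can draw reads from their parent genes, and Mrpl23 and Mrps36 are among the members with the fewest counts, so their values are uncertain.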
